A study of Mus musculus with 25 samples.

Results

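The mitochondrial import machinery is described here by 31 genes: those whose mouse symbol starts with Tomm or Timm followed by a number, and Dnajc19, Grpel1, Grpel2, Hspa9, Pam16, Samm50, Mtx1 and Mtx2. They were chosen by name, with earlier results of these data known. Of the 33 annotated protein-coding genes that fit, 31 were present among the 35561 genes in the expression tables. Tomm40l and Tomm6 were not analysed here. The genes were followed in 25 Smart-seq2 libraries of C57BL/6 mice, from a study of a small molecule in oocyte maturation and in vitro fertilization. In vitro matured oocytes at metaphase II (MII) were cultured with VCD (5 libraries) or with PBS (4 libraries). 2-cell embryos obtained by in vitro fertilization had VCD (4 libraries) or PBS (4 libraries) in the medium, and so did morulae (4 and 4 libraries). Maturation took 16 h and fertilization 6 h. The sources used here do not give the full name or the dose of VCD, how many oocytes or embryos went into a library, or whether libraries came from separate animals. The p-values therefore reflect only how these libraries varied, which may be technical.

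Nearly every mitochondrial protein is encoded in the nucleus, made in the cytosol and threaded into the organelle. The TOM complex is the gate of the outer membrane, where receptors pass precursors to a channel. From there the SAM complex inserts barrel proteins into the outer membrane, small TIM chaperones carry hydrophobic precursors across the intermembrane space, TIM22 inserts carriers into the inner membrane, and TIM23 with the PAM motor pulls precursors into the matrix. The mouse egg brings its mitochondria and a store of maternal RNA, and broad transcription from the embryo's own genome begins at the 2-cell stage.

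Values are FPKM, fragments per kilobase of gene scaled to the mapped reads of the library, so that levels can be set side by side between genes. FPKM is a relative scale, and in such libraries fewer cells and less RNA per cell cannot be told apart. The depth implied by the values was 15075832 to 20998296 reads per library, and 1 read in a gene of 1 kb was worth 0.0476 to 0.0663 FPKM. Each list of stage markers summed highest at its own stage. The 6 oocyte markers summed to 7614 to 9760 FPKM in MII oocytes, 2886 to 3719 FPKM in 2-cell embryos and 28.2 to 58.3 FPKM in morulae. The 6 markers of the 2-cell embryo summed to 1055 to 1469 FPKM there, 75.5 to 96.7 FPKM in oocytes and 2.21 to 21.1 FPKM in morulae. Markers of the morula summed to 109 to 193 FPKM in morulae against 28.01 to 42.9 FPKM in 2-cell embryos. In MII oocytes, where 4 of these 6 markers were listed, they summed to 50.96 to 79.3 FPKM, above the 2-cell embryos. Cumulus and granulosa cell markers summed to 7.59 to 11.8 FPKM in MII oocytes, with 1 of the 9 markers in the table averaging 1 FPKM or more, and to at most 0.238 FPKM in morulae. Sperm markers summed to at most 1.93 FPKM in any library, and blood and immune cell markers to at most 10.2 FPKM. Libraries within a group differed in ways that touch these genes. Replicate 4 of the PBS morulae was the lowest of its group for 22 of the 30 import genes that averaged 1 FPKM or more there. Replicate 4 of the VCD 2-cell embryos was the highest of its group for 20 of 26. Leaving out either library changed none of the calls of import genes.

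The upstream sequences of 5 genes are shown first. They were picked among genes that carry the letters searched for, so they do not show how common these letters are. Timm13 and Mtx2 had the largest rises in the morula, Tomm22 stands for the receptors that rose, and Tomm34 and Timm8b were lower in the morula. Each run is the 250 bases before the gene's start in RefSeq (build GRCm38.p6), read 5′ to 3′ on the gene's own strand. Capitals mark matches to CCGGAAG, the core of the ETS family motif bound by GABPA, or, in Timm13, to GCGCATGCG, the motif of NRF1. Both factors are known regulators of nuclear genes for mitochondrial proteins.
Timm13, chr10:80900970-80901219, minus strand: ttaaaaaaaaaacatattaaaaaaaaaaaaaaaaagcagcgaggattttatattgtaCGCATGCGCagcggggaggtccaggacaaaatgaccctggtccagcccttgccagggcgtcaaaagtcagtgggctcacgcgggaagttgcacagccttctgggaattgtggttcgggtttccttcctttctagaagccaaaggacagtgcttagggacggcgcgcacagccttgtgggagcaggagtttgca
Mtx2, chr2:74825562-74825811, plus strand: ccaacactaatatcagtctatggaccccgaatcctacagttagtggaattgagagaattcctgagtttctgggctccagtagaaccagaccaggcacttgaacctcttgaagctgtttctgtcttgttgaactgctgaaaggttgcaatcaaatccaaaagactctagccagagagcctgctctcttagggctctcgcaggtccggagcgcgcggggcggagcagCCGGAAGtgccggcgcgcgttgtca
Tomm22, chr15:79670618-79670867, plus strand: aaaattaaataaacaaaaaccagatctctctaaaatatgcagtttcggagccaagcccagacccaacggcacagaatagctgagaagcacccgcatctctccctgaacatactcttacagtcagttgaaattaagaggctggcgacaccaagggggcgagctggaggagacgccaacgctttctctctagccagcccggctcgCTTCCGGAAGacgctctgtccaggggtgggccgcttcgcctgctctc
Tomm34, chr2:164071170-164071419, minus strand: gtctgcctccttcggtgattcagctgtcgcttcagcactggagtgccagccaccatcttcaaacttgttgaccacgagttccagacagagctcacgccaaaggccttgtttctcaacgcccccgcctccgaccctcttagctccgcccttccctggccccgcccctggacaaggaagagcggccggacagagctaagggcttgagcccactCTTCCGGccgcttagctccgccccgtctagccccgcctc
Timm8b, chr9:50603651-50603900, plus strand: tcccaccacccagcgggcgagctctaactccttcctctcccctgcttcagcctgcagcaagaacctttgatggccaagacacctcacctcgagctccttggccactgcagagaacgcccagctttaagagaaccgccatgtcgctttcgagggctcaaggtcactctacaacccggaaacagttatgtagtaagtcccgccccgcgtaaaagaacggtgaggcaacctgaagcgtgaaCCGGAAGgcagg

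In Timm13 the NRF1 letters, which lie on the other strand, began 193 bases before the start. In Mtx2 the ETS letters began 25 bases before it, in Tomm34, where they lie on the other strand, 39 bases, and in Timm8b 12 bases. The longer capital run of Tomm22 is 1 stretch that reads as the motif on both strands. Over windows of 300 bases, from 250 before to 50 after the start, 27 of the 31 genes had a sequence in the table. CCGGAAG was found on either strand in 12 of these 27 promoters (44.4%), against 8.86% of all 32851 promoters in the table. Among promoters of genes that were higher in PBS morulae than in PBS 2-cell embryos the share was 22.3%, and among those of genes that were lower it was 12.5%. The import genes were also richer in CpG than the table as a whole, with a median of 19 CpG per window against 7 in all promoters and 21 in promoters of the genes that were higher in PBS morulae. GCGCATGCG was found in 1 of 27 (3.70%), against 1.75% of all promoters and 4.27% of those of genes higher in PBS morulae. On the same 2 backgrounds, AAGATGGCG, the letters of YY1, was found in 2 (7.41%, against 1.40% and 4.16%). CACGTG, the E-box, was found in 5 (18.5%, against 7.15% and 11.8%). TGACGTCA, the cAMP response element, was found in 0 (against 1.79% and 3.75%). These shares rest on few genes and were not tested. The ETS letters stood before genes that were higher in the morula, such as Mtx2, Tomm22 and Tomm70a, and also before Tomm34 and Timm8b, which were lower. Neither the ETS nor the NRF1 letters were found for Timm50, Timm22, Tomm5 and Timm17a, which rose more than Tomm22. A match describes letters, and binding was not measured.

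The import machinery as a whole was scarce in the oocyte and abundant in the morula. The 31 genes together made up 0.103% ± 0.00830 of all FPKM in VCD oocytes and 0.102% ± 0.00324 in PBS oocytes (SD, n = 5 and 4). In 2-cell embryos the share was 0.125% ± 0.0111 with VCD and 0.123% ± 0.00292 with PBS, and in morulae 0.668% ± 0.0553 with VCD and 0.746% ± 0.103 with PBS (SD, n = 4 each). Of the 31 genes, 18 averaged 1 FPKM or more in either oocyte group, 26 in either 2-cell group and 30 in either morula group. At 100 FPKM or more there was 1 gene in each oocyte and 2-cell group, Tomm34, against 9 in VCD morulae and 10 in PBS morulae, and Tomm34 was not among them. The oocyte and embryo tables were deposited separately, so oocyte and embryo levels are set side by side with no test.

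**Figure D1:**
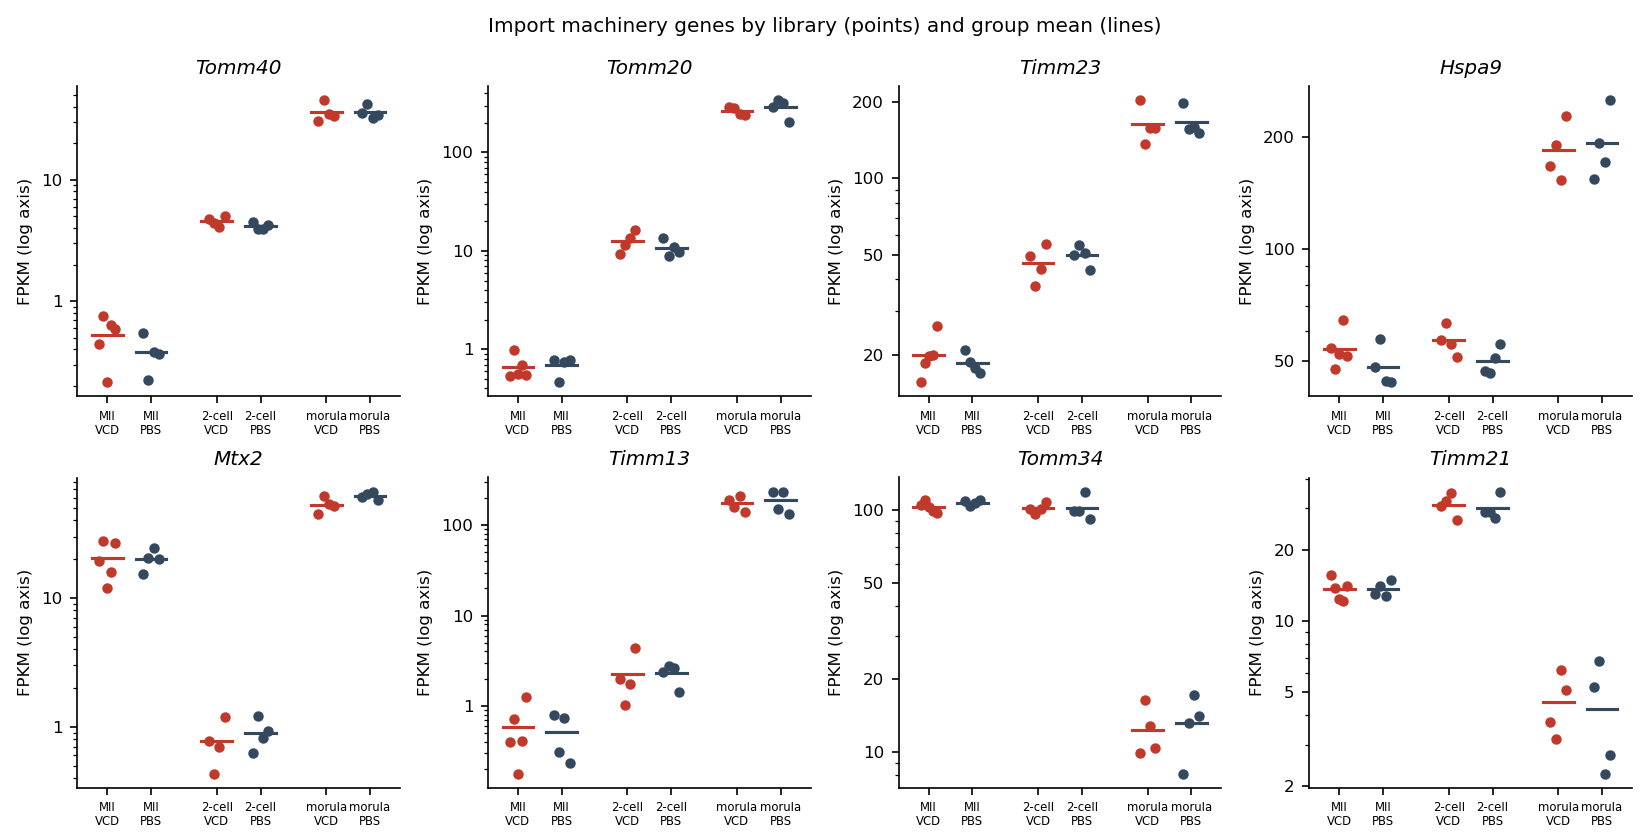
FPKM (log axes that differ between panels) of 8 import genes in each of the 25 libraries, with VCD (red) left of PBS (dark) within each stage and the group mean as a line. Tomm40, Tomm20, Timm23, Hspa9 and Timm13 were highest in the morula, Mtx2 was lowest in the 2-cell embryo, and Tomm34 and Timm21 were lowest in the morula.

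The question of development, morula against 2-cell embryo, was tested in VCD embryos and in PBS embryos with limma on log2(FPKM + 1), with Benjamini-Hochberg adjustment over all genes tested. The libraries of the VCD test and of the PBS test are not the same. In VCD embryos 28 of the 31 genes reached 1 FPKM in at least 4 libraries and could be tested: 25 were higher in the morula and 3 lower at an adjusted p under 0.05. Over all 12355 genes tested in VCD embryos 41.0% were called higher and 43.9% lower. In PBS embryos 27 could be tested, 24 were higher and 3 lower, against 42.7% higher and 45.0% lower of all 12517 genes tested. Most genes were called at this transition, so a call by itself says little. At this scaling and this minimum of FPKM the calls over all genes were split nearly evenly, while those of the import genes were mostly rises. The median difference of the import genes on the log2(FPKM + 1) scale, which understates the change of low genes, was 2.53 in VCD embryos and 2.80 in PBS embryos, and the median of all genes tested was -0.08 in each. Scaling the libraries by the median of ratios gave 4359 genes higher and 6088 lower with VCD and 4625 and 6331 with PBS, so the near-even split depends on the scaling. It moved the median of all genes to -0.48 in each, and the import genes' medians to 2.06 and 2.33. The split also depends on the minimum of 4 libraries, which a gene can pass through 1 stage alone. Without VCD 2-cell replicate 1 the calls were 4864 higher and 2729 lower, and without VCD morula replicate 1 they were 3800 and 5321. The median of all genes was then 0.63 and -0.46, and that of the import genes 2.52 and 2.44. Dnajc19 passed the minimum in VCD embryos through its morula libraries alone, so that call was bound to be a rise. Mtx1, Mtx2 and Timm29 reached 1 FPKM in 1 to 3 of the 4 libraries of each 2-cell group. With no minimum on low values all 31 genes could be tested. Then 26 were higher and 4 lower in VCD morulae (20.3% and 26.4% of all genes), and 27 were higher and 4 lower in PBS morulae (21.6% and 27.9%).

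**Figure D2:**
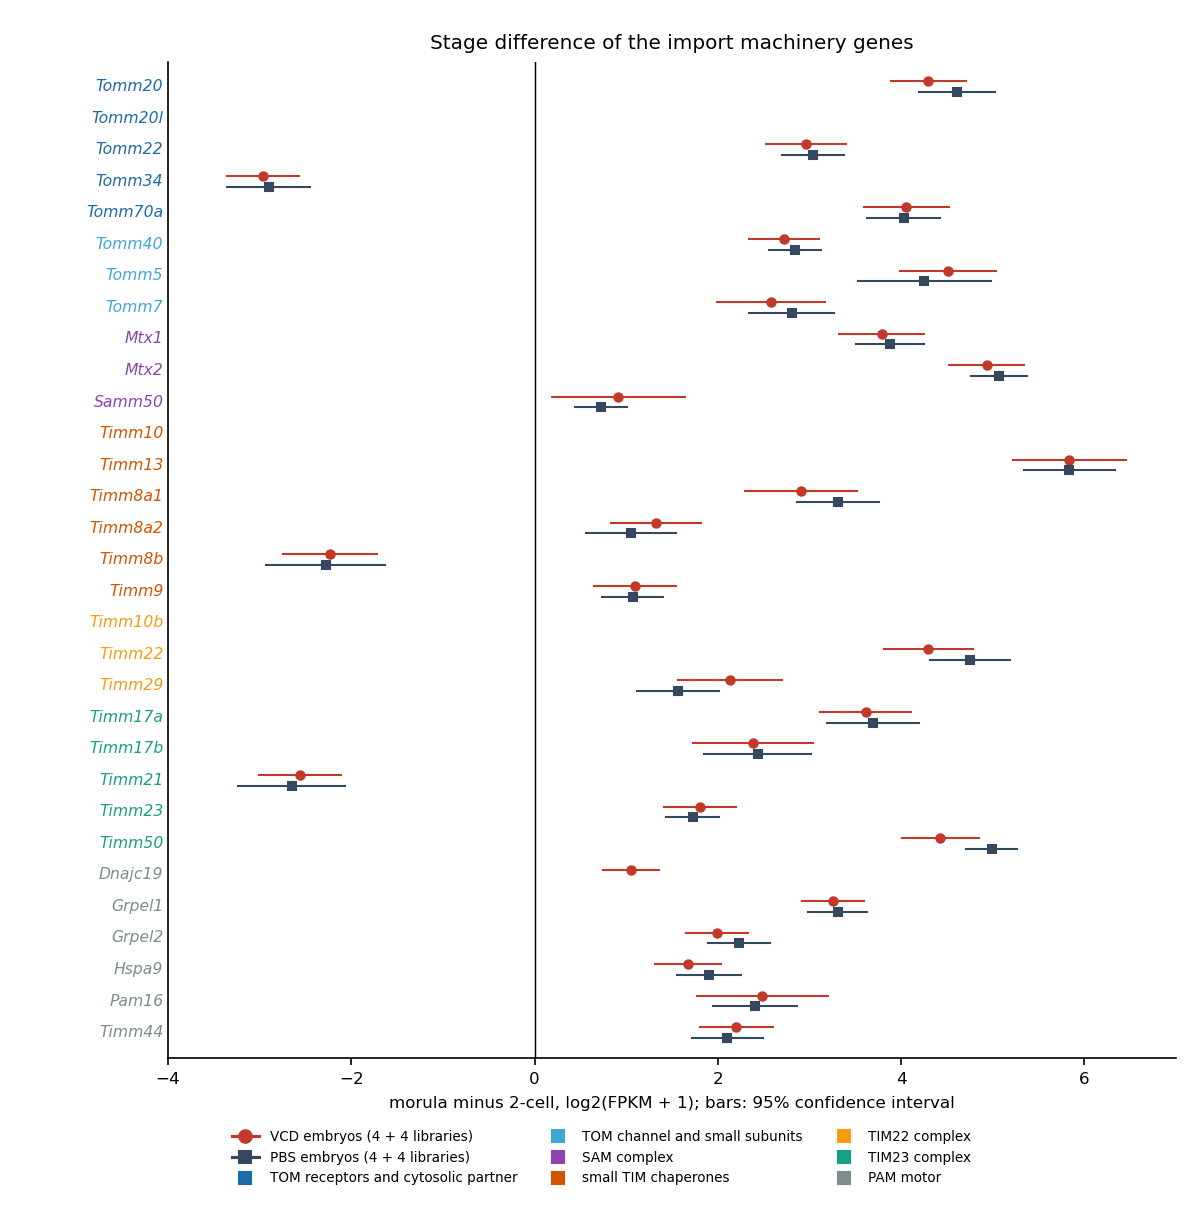
Difference between morula and 2-cell embryo in log2(FPKM + 1) with its 95% confidence interval, for VCD embryos (circles, 4 and 4 libraries) above PBS embryos (squares, 4 and 4 libraries), with gene names coloured by role and no symbol where a gene was not tested. Tomm34, Timm21 and Timm8b lie left of 0 and every other tested gene right of it.

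Tomm20, the receptor that recognises presequences, had 292, 281, 244 and 238 FPKM in VCD morulae, against 9.25, 11.6, 13.4 and 16.5 FPKM in VCD 2-cell embryos. PBS morulae had 291, 341, 322 and 202 FPKM, against 13.4, 8.78, 10.97 and 9.83 FPKM in PBS 2-cell embryos. Every morula library lay far above every 2-cell library, and replicate 4 of the PBS morulae was the lowest of the 8 morula libraries. The rise was 4.30 ± 0.19 (log2, SE; limma adjusted p = 5.02e-09) in VCD embryos and 4.61 ± 0.19 (adjusted p = 2.51e-09) in PBS embryos. In oocytes Tomm20 was barely detected, at 0.539, 0.984, 0.555, 0.7004 and 0.547 FPKM with VCD and 0.775, 0.462, 0.748 and 0.773 FPKM with PBS. Tomm22, the receptor that also holds the complex together, averaged 99.2 ± 8.46 FPKM in VCD morulae and 12.1 ± 3.43 FPKM in VCD 2-cell embryos (SD, n = 4 each). In PBS embryos it averaged 102 ± 18.2 FPKM in morulae and 11.4 ± 0.625 FPKM at the 2-cell stage. Tomm70a, the receptor for carrier precursors handed over by cytosolic chaperones, averaged 43.3 ± 5.43 FPKM in VCD morulae against 1.72 ± 0.76 FPKM in VCD 2-cell embryos, and 39.3 ± 5.5001 FPKM in PBS morulae against 1.49 ± 0.527 FPKM in PBS 2-cell embryos. All 3 receptors rose at this step in both VCD and PBS embryos.

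Tomm34, a cytosolic partner that binds Hsp70 and Hsp90 chaperones, ran against the receptors. It had 9.89, 16.4, 12.8 and 10.3 FPKM in VCD morulae, against 101, 95.8, 101 and 108 FPKM in VCD 2-cell embryos. PBS morulae had 8.11, 13.2, 17.2 and 14.1 FPKM, against 98.7, 99.3, 119 and 91.3 FPKM in PBS 2-cell embryos. The groups did not overlap, and the difference was -2.96 ± 0.18 (log2, SE; limma adjusted p = 4.94e-08) in VCD embryos and -2.90 ± 0.20 (adjusted p = 1.51e-07) in PBS embryos. In oocytes Tomm34 stood at 97.4 to 109.9 FPKM with VCD and 103 to 110.3 FPKM with PBS, the highest level of any import gene there. Tomm20l, the paralog of Tomm20, averaged 2.09 ± 1.14 FPKM in VCD morulae and 1.91 ± 0.982 FPKM in PBS morulae and stayed under 1 FPKM in every earlier library.

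Tomm40 is the channel itself. It had 0.442, 0.751, 0.215, 0.638 and 0.595 FPKM in VCD oocytes and 0.549, 0.222, 0.3802 and 0.367 FPKM in PBS oocytes. VCD 2-cell embryos had 4.73, 4.38, 4.08 and 5.03 FPKM and PBS 2-cell embryos 4.46, 3.93, 3.91 and 4.24 FPKM, while VCD morulae had 30.3, 45.2, 34.98 and 33.4 FPKM and PBS morulae 35.7, 41.9, 32.01 and 34.2 FPKM. The ranges of the 3 stages were separate, and the ranges of VCD and PBS overlapped at each stage. Between 2-cell embryo and morula Tomm40 rose by 2.72 ± 0.17 (log2, SE; limma adjusted p = 6.92e-08) with VCD and by 2.84 ± 0.13 (adjusted p = 5.24e-09) with PBS. The small subunits Tomm5 and Tomm7, which steady the channel, rose too. Tomm5 had 420.1, 393, 314 and 341 FPKM in VCD morulae, against 14.8, 10.97, 12.3 and 24.9 FPKM in VCD 2-cell embryos. In PBS morulae it had 636, 495, 553 and 203 FPKM, against 23.2, 28.3, 21.9 and 15.6 FPKM in PBS 2-cell embryos. Replicate 4 of the PBS morulae was well under the other 3, and Tomm5 was at most 0.237 FPKM in any oocyte library. It rose by 4.52 ± 0.24 (adjusted p = 1.81e-08) with VCD and 4.25 ± 0.33 (adjusted p = 3.42e-07) with PBS. Tomm7 averaged 40.8 ± 10.96 FPKM in VCD morulae against 6.04 ± 2.04 FPKM at the VCD 2-cell stage, and 38.6 ± 10.8 FPKM in PBS morulae against 4.603 ± 1.08 FPKM at the PBS 2-cell stage.

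The SAM complex dipped at the 2-cell stage. Summed over Samm50, Mtx1 and Mtx2, it stood at 26.1 ± 6.79 FPKM in VCD oocytes and 25.6 ± 4.54 FPKM in PBS oocytes, at 4.94 ± 2.25 and 5.61 ± 0.374 FPKM in VCD and PBS 2-cell embryos, and at 83.4 ± 7.18 and 96.3 ± 6.82 FPKM in VCD and PBS morulae (SD, n = 4, or 5 for VCD oocytes). The 2-cell libraries lay below all others. Mtx2 carried most of the dip, and the mean of Samm50 was lowest at the 2-cell stage as well. Mtx2, a metaxin on the cytosolic face of the complex, had 19.5, 27.8, 12.02, 15.9 and 26.5 FPKM in VCD oocytes and 15.3, 20.3, 24.6 and 19.9 FPKM in PBS oocytes. It had 44.7, 61.96, 53.6 and 51.4 FPKM in VCD morulae, against 0.776, 0.432, 0.693 and 1.18 FPKM in VCD 2-cell embryos. PBS morulae had 60.4, 64.4, 66.9 and 57.8 FPKM, against 0.624, 1.21, 0.822 and 0.936 FPKM in PBS 2-cell embryos. The rise was 4.94 ± 0.18 (log2, SE; limma adjusted p = 2.11e-09) with VCD and 5.07 ± 0.14 (adjusted p = 1.77e-10) with PBS, and the ratio of mean FPKM was 68.6 and 69.5. Mtx1, its partner metaxin, averaged 22.98 ± 3.41 FPKM in VCD morulae against 0.758 ± 0.383 FPKM at the VCD 2-cell stage, and 26.9 ± 5.12 FPKM in PBS morulae against 0.886 ± 0.234 FPKM at the PBS 2-cell stage. Unlike Mtx2 it was under 0.5 FPKM in every oocyte library. Samm50, the barrel that does the insertion, moved least: 13.2, 6.36, 4.49 and 5.89 FPKM in VCD morulae against 3.01, 2.703, 2.06 and 5.87 FPKM in VCD 2-cell embryos, and 6.23, 6.94, 7.06 and 7.72 FPKM in PBS morulae against 4.11, 3.395, 4.16 and 3.65 FPKM in PBS 2-cell embryos. The VCD ranges overlapped and the PBS ranges did not. In oocytes Samm50 averaged 5.35 ± 1.01 FPKM with VCD and 5.24 ± 1.18 FPKM with PBS. Its rise of 0.92 ± 0.33 with VCD (limma adjusted p = 0.0221) no longer passed the test under median-of-ratios scaling (0.51, adjusted p = 0.160) or with no minimum on low values (0.92, adjusted p = 0.0551). Nor did it pass without VCD 2-cell replicate 2 (0.85, adjusted p = 0.0509), VCD 2-cell replicate 3 (0.76, adjusted p = 0.0637) or VCD morula replicate 1 (0.64, adjusted p = 0.0538), and the direction was the same in each. With PBS the rise was 0.73 ± 0.13 (adjusted p = 2.80e-04).

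Of the 6 small TIM chaperones, which form hexameric rings in the intermembrane space, 5 could be tested. With VCD and with PBS, 4 were higher in the morula and 1 lower. Of all genes tested, 41.0% were called higher and 43.9% lower with VCD, and 42.7% and 45.0% with PBS. Timm13 had 191, 161, 213 and 140.0 FPKM in VCD morulae, against 1.98, 1.02, 1.74 and 4.32 FPKM in VCD 2-cell embryos. It had 236, 152, 236 and 134 FPKM in PBS morulae, against 2.37, 2.74, 2.61 and 1.43 FPKM in PBS 2-cell embryos. Of the import genes tested it had the largest rise, 5.84 ± 0.28 (log2, SE; limma adjusted p = 9.22e-09) with VCD and 5.83 ± 0.22 (adjusted p = 1.56e-09) with PBS. Timm8b, its relative, went the other way. It had 4.81, 4.54, 3.78 and 6.26 FPKM in VCD morulae, against 17.8, 24.7, 28.9 and 36.7 FPKM in VCD 2-cell embryos, and 6.34, 3.36, 6.55 and 2.64 FPKM in PBS morulae, against 16.8, 23.1, 29.4 and 36.5 FPKM in PBS 2-cell embryos. No morula library reached any 2-cell library, and the limma difference was -2.23 ± 0.23 (adjusted p = 4.03e-06) with VCD and -2.28 ± 0.29 (adjusted p = 2.28e-05) with PBS. Of the exons of Timm8b, 15.6% overlap those of Nkapd1 on the other strand, and a library that does not keep the strand cannot tell the reads there apart. The same limit applies to Mtx1 (21.2%, Gm43737), Pam16 (18.7%, Glis2) and Grpel1 (11.65%, Tada2b). Timm9 averaged 24.1 ± 1.9998 FPKM in VCD morulae against 11.001 ± 3.25 FPKM at the VCD 2-cell stage, and 27.3 ± 3.53 FPKM in PBS morulae against 12.5 ± 1.97 FPKM at the PBS 2-cell stage. Timm10, with which Timm9 forms a ring, was listed at 0 in every PBS oocyte library, was at most 0.295 FPKM in any 2-cell library, and averaged 1.44 ± 0.763 FPKM in VCD morulae and 1.64 ± 0.667 FPKM in PBS morulae. Timm9 thus exceeded its ring partner in every library.

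TIM22 inserts carriers into the inner membrane. Its channel gene Timm22 had 70.2, 72.3, 50.95 and 61.6 FPKM in VCD morulae, against 1.67, 1.84, 2.101 and 3.83 FPKM in VCD 2-cell embryos. PBS morulae had 106, 71.7, 79.1 and 53.5 FPKM, against 1.7003, 1.77, 2.25 and 1.66 FPKM in PBS 2-cell embryos. It rose by 4.30 ± 0.22 (log2, SE; limma adjusted p = 1.47e-08) and 4.75 ± 0.20 (adjusted p = 2.62e-09) in VCD and PBS embryos. Timm29, a subunit that holds the complex to TOM in human cells, rose by 2.13 ± 0.26 and 1.57 ± 0.20 in VCD and PBS embryos (adjusted p = 1.35e-05 and 2.41e-05). Timm10b, the small TIM that docks on the complex, averaged 0.227 ± 0.136 FPKM in VCD morulae and 1.02 ± 0.182 FPKM in VCD 2-cell embryos, and 0.336 ± 0.0724 and 1.16 ± 0.225 FPKM in PBS morulae and PBS 2-cell embryos. It was the gene added to the 3 falling ones when the minimum on low values was dropped.

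TIM23 takes in precursors with a presequence. Timm23, its channel-side core, had 15.6, 18.6, 19.9, 20.1 and 26.2 FPKM in VCD oocytes and 20.98, 18.8, 17.8 and 16.99 FPKM in PBS oocytes, 49.2, 37.5, 43.7 and 54.9 FPKM in VCD 2-cell embryos and 49.7, 54.4, 50.9 and 43.6 FPKM in PBS 2-cell embryos, and 204, 137, 158 and 159 FPKM in VCD morulae and 199, 157, 160.4 and 151 FPKM in PBS morulae. The 3 stages did not overlap. The rise between 2-cell embryo and morula was 1.80 ± 0.18 (log2, SE; limma adjusted p = 2.55e-06) with VCD and 1.72 ± 0.13 (adjusted p = 2.72e-07) with PBS. Of the 50-base words in Timm23 exons, 57.5% also occur in other genes and 54.5% in Gm10273, which itself averaged 1.82 ± 0.397 FPKM in VCD morulae and 1.76 ± 0.384 FPKM in PBS morulae, so the split of reads between them is uncertain. Timm50, the receptor of the complex, had 209, 219, 145 and 175 FPKM in VCD morulae, against 6.598, 7.85, 6.57 and 9.84 FPKM in VCD 2-cell embryos. PBS morulae had 218, 219.9, 206 and 206 FPKM, against 6.38, 6.15, 5.97 and 4.595 FPKM in PBS 2-cell embryos, and the rises were 4.43 ± 0.19 (adjusted p = 4.81e-09) with VCD and 4.99 ± 0.13 (adjusted p = 1.26e-10) with PBS. Timm21, a subunit that in yeast and human cells links TIM23 to TOM and to respiratory chain assembly, fell. It had 3.74, 3.15, 6.21 and 5.12 FPKM in VCD morulae, against 30.8, 32.2, 34.7 and 26.7 FPKM in VCD 2-cell embryos, and 5.25, 6.796, 2.26 and 2.71 FPKM in PBS morulae, against 28.8, 28.9, 27.2 and 35.3 FPKM in PBS 2-cell embryos. The limma difference was -2.56 ± 0.20 (adjusted p = 4.48e-07) with VCD and -2.65 ± 0.26 (adjusted p = 2.76e-06) with PBS.

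The PAM motor pulls precursors through TIM23 with ATP. Hspa9, the mitochondrial Hsp70 at its heart, had 53.997, 47.5, 52.1, 64.2 and 51.4 FPKM in VCD oocytes and 47.99, 57.2, 44.01 and 43.8 FPKM in PBS oocytes. It had 56.9, 63.4, 55.3 and 51.3 FPKM in VCD 2-cell embryos and 46.8, 46.2, 50.8 and 55.5 FPKM in PBS 2-cell embryos, and 167, 190.5, 153 and 228 FPKM in VCD morulae and 154, 192, 171 and 251 FPKM in PBS morulae. Oocyte and 2-cell levels lay in the same range, and the morula stood above both. The rise at the morula was 1.67 ± 0.16 (log2, SE; limma adjusted p = 2.43e-06) with VCD and 1.90 ± 0.16 (adjusted p = 6.24e-07) with PBS. Replicate 4, the lowest PBS morula library for most import genes, was the highest for Hspa9, and VCD morula replicate 4 was the highest of its group as well. Grpel1, the exchange factor that resets Hspa9, averaged 149 ± 14.7 FPKM in VCD morulae against 14.7 ± 1.67 FPKM at the VCD 2-cell stage and 169.9 ± 23.6 FPKM in PBS morulae against 16.2 ± 1.84 FPKM at the PBS 2-cell stage, rising by 3.26 ± 0.15 (adjusted p = 8.45e-09) and 3.31 ± 0.14 (adjusted p = 3.96e-09). Timm44, which tethers the motor to the channel, averaged 22.6 ± 3.15 FPKM in VCD morulae against 4.15 ± 0.721 FPKM at the VCD 2-cell stage, and 20.3 ± 3.84 FPKM in PBS morulae against 3.93 ± 0.779 FPKM at the PBS 2-cell stage. Pam16, which restrains the J protein of the motor, averaged 57.1 ± 18.97 FPKM in VCD morulae against 9.63 ± 4.23 FPKM at the VCD 2-cell stage, and 58.1 ± 16.02 FPKM in PBS morulae against 9.88 ± 1.37 FPKM at the PBS 2-cell stage. Of its 50-base words 35.7% also occur in other genes, and Gm9803, which holds the most with 19.98%, averaged 6.12 ± 1.86 FPKM in VCD morulae and 7.13 ± 1.12 FPKM in PBS morulae. Dnajc19, a J protein of the motor, was far lower than its partners: it averaged 1.54 ± 0.428 FPKM in VCD morulae and 1.31 ± 0.7002 FPKM in PBS morulae and was at most 0.308 FPKM in any 2-cell library.

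**Figure D3:**
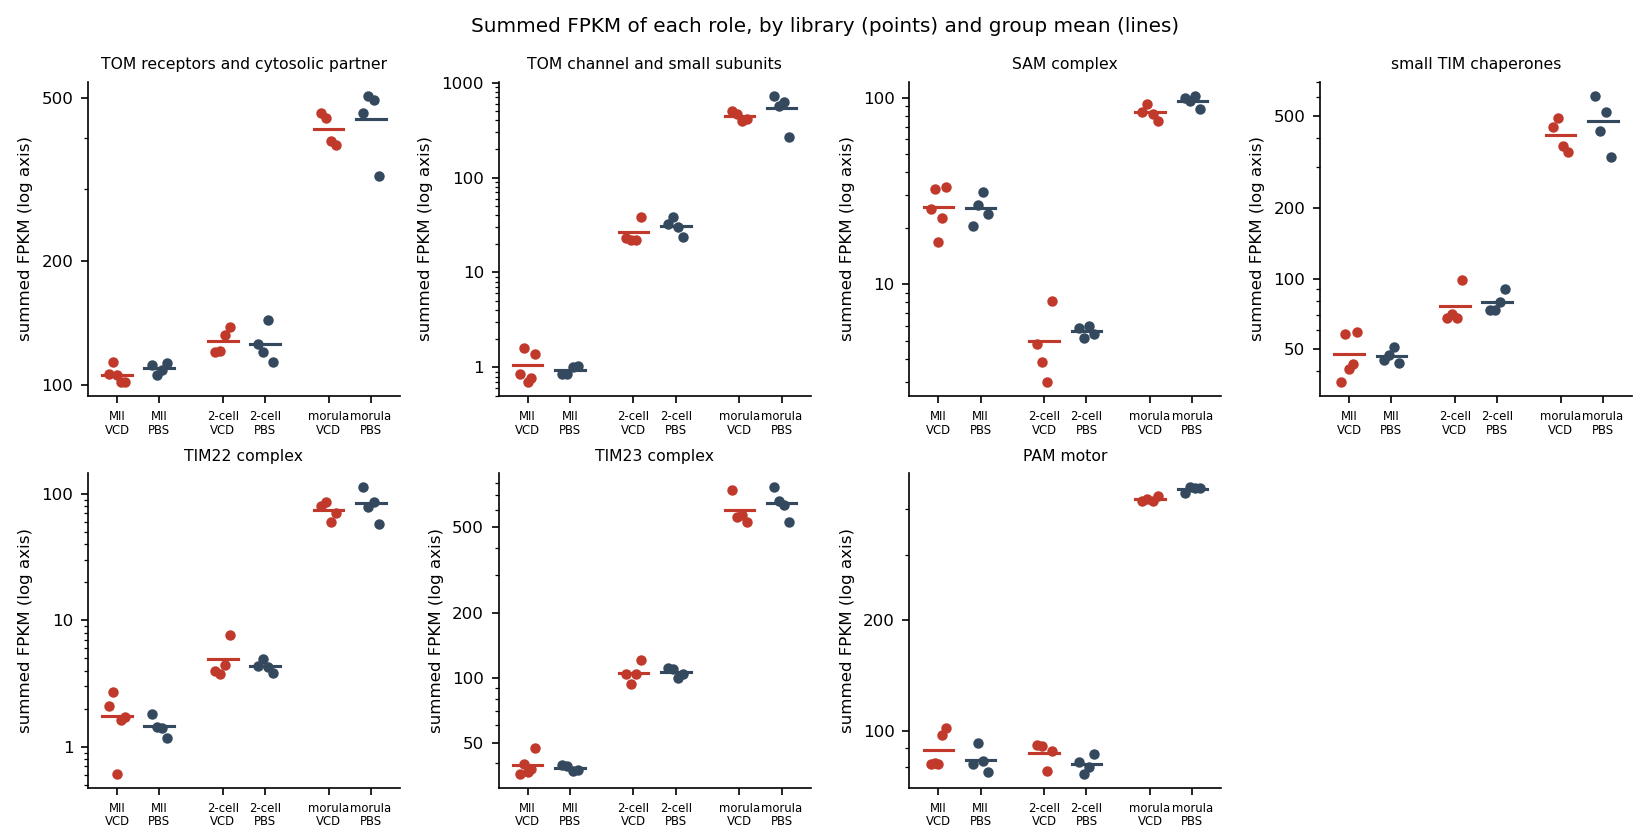
Summed FPKM (log axes that differ between panels) of each role of the import machinery in each of the 25 libraries, with VCD (red) left of PBS (dark) within each stage and the group mean as a line. Each role was highest in the morula, the SAM complex dipped at the 2-cell stage, and the PAM motor stood level between oocyte and 2-cell embryo.

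Set side by side, the roles differed in how far apart their levels lay between stages. The TOM channel and its small subunits summed to 1.06 ± 0.395 FPKM in VCD oocytes, 26.3 ± 8.09 FPKM in VCD 2-cell embryos and 444 ± 50.5 FPKM in VCD morulae. With PBS the same sums were 0.935 ± 0.0975, 30.98 ± 6.15 and 546 ± 197 FPKM. The PAM motor, by contrast, summed to 88.8 ± 10.002, 87.02 ± 6.33 and 424 ± 6.02 FPKM with VCD and to 83.6 ± 6.37, 81.4 ± 4.26 and 452 ± 7.61 FPKM with PBS. The channel group thus had the lowest sum of the 7 roles in oocytes, and the motor was among the highest. The sums cover unequal numbers of genes, 3 for the channel group, without Tomm40l and Tomm6, and 6 for the motor. Hspa9 alone averaged 53.8 FPKM of the motor sum in VCD oocytes and 48.2 FPKM in PBS oocytes. In the morula the motor sums did not overlap between agents, with 419 to 432 FPKM in VCD morulae and 441 to 457 FPKM in PBS morulae. For every other role and stage the VCD and PBS ranges overlapped. The sums were not tested, and 1 separate case among so many is not read as a VCD difference. Over the 27 genes tested with VCD and with PBS, the sign of the stage difference was the same in 27. The largest gap between the VCD and PBS stage differences was 0.57, for Timm29.

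Which paralog of a pair had the higher FPKM differed between stages. Timm17a and Timm17b encode alternative subunits of TIM23, and Timm17a made up 37.3 ± 4.47% of their summed FPKM in VCD oocytes and 40.7 ± 3.97% in PBS oocytes. The share was 83.3 ± 4.64% in VCD 2-cell embryos, 83.9 ± 5.07% in PBS 2-cell embryos, 90.6 ± 3.11% in VCD morulae and 91.4 ± 1.22% in PBS morulae (SD, n = 4, or 5 for VCD oocytes). By FPKM, Timm17b was thus the higher of the pair in every oocyte library and Timm17a in every embryo library. In oocytes both were low, at 1.40 and 2.42 FPKM with VCD and 1.62 and 2.39 FPKM with PBS. Their order there depends on gene length, with exons of 7893 bases in Timm17a and 2557 in Timm17b. Reads recovered from FPKM were more for Timm17a, 1020 against 568 in VCD oocytes and 916 against 437 in PBS oocytes. Timm17a itself averaged 218 ± 60.9 FPKM in VCD morulae against 16.7 ± 3.69 FPKM at the VCD 2-cell stage, and 238 ± 62.6 FPKM in PBS morulae against 17.3 ± 4.15 FPKM at the PBS 2-cell stage. Timm17b averaged 21.9 ± 5.81 against 3.56 ± 2.08 FPKM in VCD morulae and 2-cell embryos, and 22.7 ± 8.35 against 3.26 ± 1.05 FPKM in PBS morulae and 2-cell embryos. Timm8a1 and Timm8a2, paralogous small TIM genes, were also ordered differently in oocytes and morulae. Timm8a1 made up 10.3 ± 1.77% of the pair in VCD oocytes, 8.12 ± 3.28% in PBS oocytes, 57.03 ± 7.85% in VCD 2-cell embryos, 53.1 ± 8.14% in PBS 2-cell embryos, 79.5 ± 5.84% in VCD morulae and 84.6 ± 1.89% in PBS morulae. Timm8a1 had 187, 254, 92.7 and 139 FPKM in VCD morulae and 289, 204, 203 and 149.8 FPKM in PBS morulae, while Timm8a2 ranged over 34.6 to 45.6 and 23.2 to 47.7 FPKM there. Of the 50-base words of Timm8a1, 41.0% also occur in Gm9797, which averaged 9.36 ± 4.25 FPKM in VCD morulae and 11.8 ± 3.44 FPKM in PBS morulae.

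**Figure D4:**
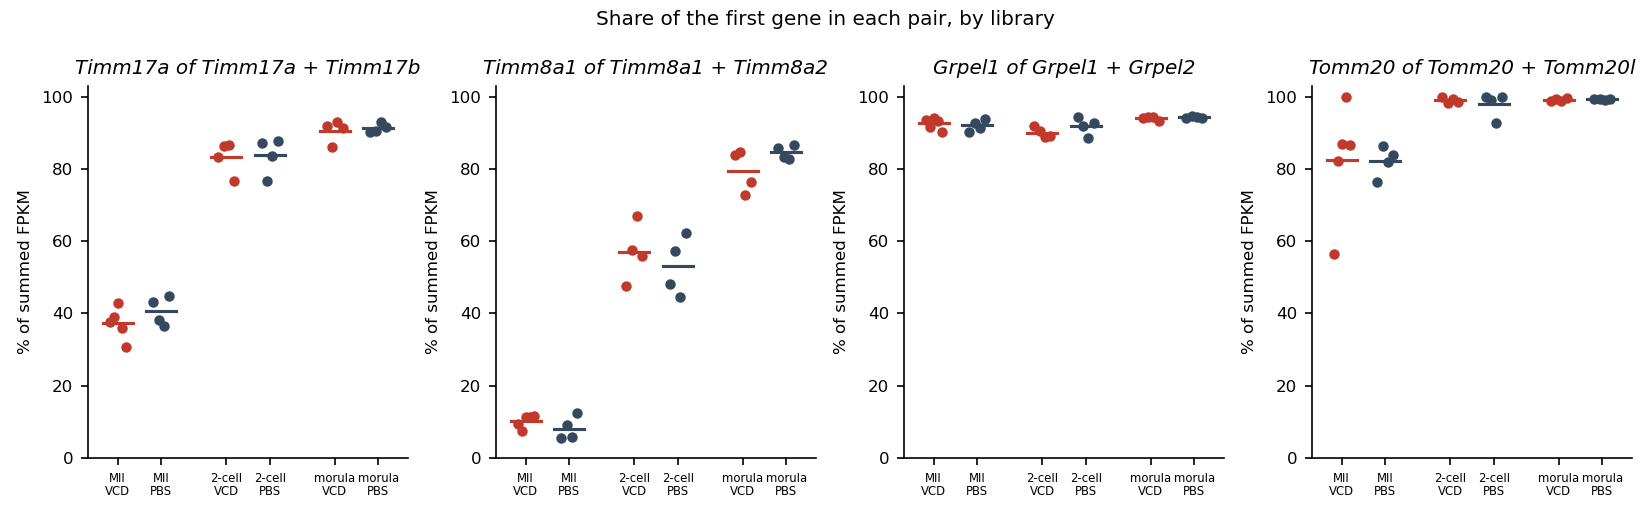
Share (%) that the gene named in the panel title makes up of the summed FPKM of its pair, in each of the 25 libraries, with VCD (red) left of PBS (dark) within each stage and the group mean as a line. By FPKM, Timm17a and Timm8a1 were the minor gene in every oocyte library and the major gene in every morula library. Grpel1 was the major gene in every library.

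Grpel1 was the major gene of its pair with Grpel2 throughout, at 92.6 ± 1.63% in VCD oocytes, 90.1 ± 1.36% in VCD 2-cell embryos and 94.1 ± 0.535% in VCD morulae. With PBS the shares were 92.1 ± 1.61%, 91.95 ± 2.42% and 94.3 ± 0.287%. Grpel2, the second exchange factor, averaged 9.34 ± 0.338 FPKM in VCD morulae against 1.61 ± 0.256 FPKM in VCD 2-cell embryos, and 10.2 ± 1.47 FPKM in PBS morulae against 1.39 ± 0.287 FPKM in PBS 2-cell embryos. The log2 ratio of each pair, with 1 FPKM added to each gene, was compared by a two-sided exact permutation test over libraries, in 18 combinations of pair and comparison. The morula exceeded the 2-cell embryo in all 8 stage tests: for Timm17a over Timm17b by 1.23 with VCD and 1.26 with PBS, for Timm8a1 over Timm8a2 by 1.58 and 2.26 and for Grpel1 over Grpel2 by 1.27 and 1.08. For Tomm20 over Tomm20l it was higher by 2.93 and 3.38, but Tomm20l was under 1 FPKM in every 2-cell library, so the added 1 FPKM set that ratio and the value says nothing of a shift within the pair. The share of Tomm20 in its pair was 99.2 ± 0.405% in VCD morulae against 99.1 ± 0.783% in VCD 2-cell embryos, and 99.4 ± 0.245% in PBS morulae against 97.98 ± 3.502% in PBS 2-cell embryos, with overlapping ranges. In each log2 ratio, the 4 morula libraries lay above the 4 2-cell libraries, which gives the smallest exact permutation p that 4 against 4 allows, 0.0286, and an adjusted p of 0.0643. None of the 18 passed at an adjusted p under 0.05. The 8 stage tests, already at their smallest p, could have passed only if more of the 18 had p-values as small. Their failure to pass is therefore not read as a lack of difference. On the scale of shares the stages overlapped for Grpel1 in PBS embryos, at 94.02 to 94.7% in morulae and 88.7 to 94.5% in 2-cell embryos, and for Timm17a in VCD embryos, at 86.1 to 93.1% in morulae and 76.7 to 86.8% in 2-cell embryos. With 0.1 FPKM added in place of 1, the Grpel1 over Grpel2 difference was 0.86 with VCD and 0.58 with PBS. The remaining 10 tests set VCD against PBS, and their smallest exact permutation p was 0.20 (adjusted p = 0.338).

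Whether VCD changed the import genes was asked at each stage, and no import gene passed the test. In MII oocytes 18 import genes were tested with limma, 0 were called and 0 had an unadjusted p under 0.05. Of all 8715 genes 0.0115% were called and 245 had an unadjusted p under 0.05. In 2-cell embryos 26 were tested, 0 were called and 1 had an unadjusted p under 0.05, with 0% of all 11369 genes called and 391 of them at an unadjusted p under 0.05. In morulae 30 were tested, 0 were called and 1 had an unadjusted p under 0.05, with 0.0100% of all 9959 genes called and 311 of them at an unadjusted p under 0.05. Of the 30 differences in morulae, 9 were above 0 and 21 below, where 48.9% of all genes tested were above 0. The count above 0 was 14 without PBS replicate 1 and 6 without PBS replicate 4, and it was not tested. The difference between the VCD effect in morulae and that in 2-cell embryos was tested for 31 genes, of which 0 were called and 1 had an unadjusted p under 0.05, with 0% of all 14144 genes called and 502 of them at an unadjusted p under 0.05. limma-voom on reads recovered from the FPKM values also called 0 import genes in each of these 4 comparisons. The VCD comparisons share libraries with the stage comparisons and with the difference between stages.

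**Figure D5:**
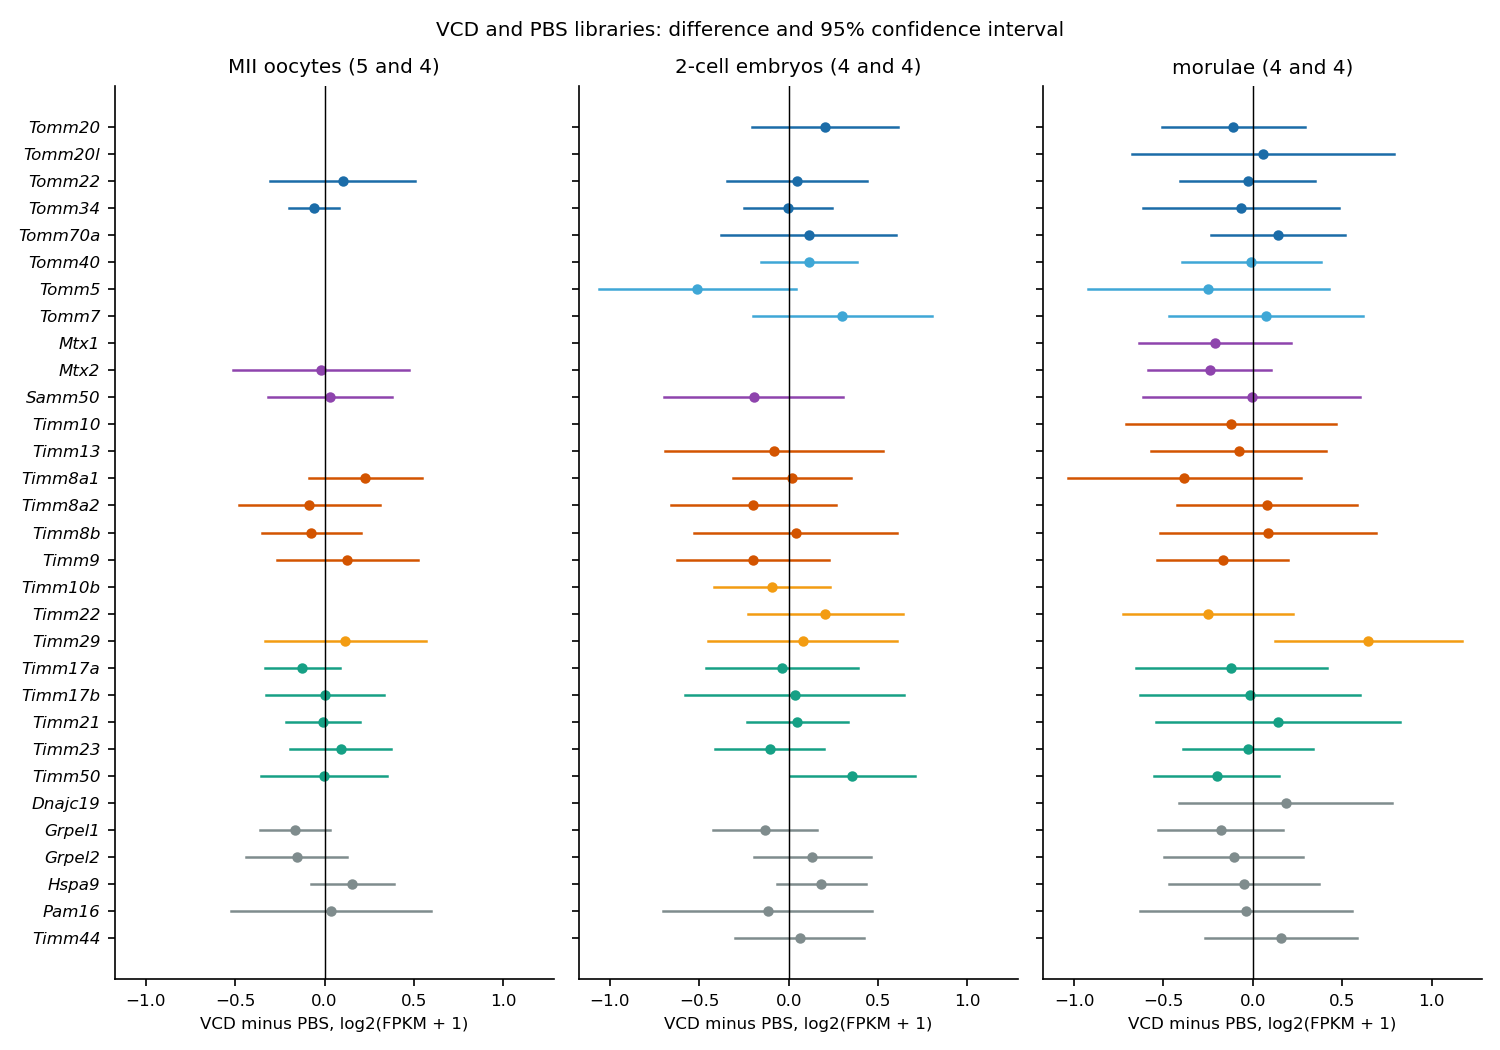
Difference between VCD and PBS libraries in log2(FPKM + 1) with its 95% confidence interval for each import gene, at each of the 3 stages (numbers of VCD and PBS libraries in the titles), coloured by role as in the plot of stage differences; a gap means that the gene was not tested there. Of the points, 9 of 18 lie above 0 in oocytes, 15 of 26 in 2-cell embryos and 9 of 30 in morulae. Timm50 in 2-cell embryos and Timm29 in morulae are the intervals that leave 0 out.

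The intervals show how large a VCD effect these libraries would still allow. In MII oocytes the 95% confidence interval lay within 1 unit of log2(FPKM + 1) in either direction for 18 of the 18 genes, in 2-cell embryos for 25 of 26 and in morulae for 28 of 30. For genes of a few FPKM, 1 unit on this scale stands for more than a 2-fold change of FPKM. For Hspa9 the VCD minus PBS difference (log2) was 0.16 (95% interval -0.08 to 0.39) in oocytes, 0.18 (-0.07 to 0.43) in 2-cell embryos and -0.05 (-0.47 to 0.37) in morulae. For Timm23 it was 0.09 (-0.19 to 0.37), -0.11 (-0.41 to 0.20) and -0.03 (-0.39 to 0.34) at the same stages. Tomm40 and Tomm20, too low to be tested in oocytes, differed by 0.11 (-0.16 to 0.38) and 0.20 (-0.20 to 0.61) in 2-cell embryos and by -0.01 (-0.40 to 0.38) and -0.11 (-0.51 to 0.29) in morulae. In oocytes the smallest unadjusted p-values were those of Grpel1, Timm8a1 and Hspa9, with differences of -0.17, 0.23 and 0.16 (limma unadjusted p = 0.0868, 0.142 and 0.171, each adjusted p 0.999). The differences of Timm8a1 and Hspa9 were 0.14 without VCD replicate 5 and 0.09 without VCD replicate 4. In 2-cell embryos Timm50 had 6.598, 7.85, 6.57 and 9.84 FPKM with VCD, against 6.38, 6.15, 5.97 and 4.595 FPKM with PBS. The 4 VCD libraries lay above the 4 PBS libraries, by 0.36 ± 0.16 (limma unadjusted p = 0.0467, adjusted p = 0.999), and by 0.25 without VCD replicate 4. Tomm5 had 14.8, 10.97, 12.3 and 24.9 FPKM with VCD, against 23.2, 28.3, 21.9 and 15.6 FPKM with PBS, and the groups overlapped through VCD replicate 4 and PBS replicate 4 (difference -0.51 ± 0.25, unadjusted p = 0.06503, adjusted p = 0.999). In morulae Timm29 had 8.97, 14.01, 8.33 and 8.702 FPKM with VCD, against 6.28, 6.74, 7.24 and 3.87 FPKM with PBS, and the groups did not overlap (difference 0.65 ± 0.24, unadjusted p = 0.0203, adjusted p = 0.99997). Mtx2 and Timm8a1 followed there, with -0.24 ± 0.16 and -0.38 ± 0.30 (unadjusted p = 0.152 and 0.221, adjusted p = 0.99997 and 0.99997). The Timm8a1 difference was -0.13 without VCD replicate 3 and -0.61 without VCD replicate 2. The VCD effect in morulae minus that in 2-cell embryos was -0.56 ± 0.22 for Timm50, 0.57 ± 0.34 for Timm29 and -0.45 ± 0.30 for Timm22 (unadjusted p = 0.0226, 0.111 and 0.148, each adjusted p 0.999). For Timm22 it was -0.27 without VCD 2-cell replicate 4.

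Genes that work before and after the import channels were followed as 6 lists. Their counts stand beside a background of 41.0% higher and 43.9% lower among all genes tested in VCD embryos, and 42.7% and 45.0% in PBS embryos, and nothing particular to a list is read from them. Of the 9 genes of cytosolic delivery, which hold precursors unfolded on the way, 7 were higher and 1 lower in VCD morulae than in VCD 2-cell embryos, and 7 and 0 in PBS. Hspa8, the constitutive cytosolic Hsp70, averaged 1039 ± 103 FPKM in VCD morulae against 15.2 ± 3.502 FPKM in VCD 2-cell embryos and rose by 6.03 (limma adjusted p = 5.72e-10). In PBS embryos it averaged 938 ± 118 FPKM against 13.7 ± 1.195 FPKM and rose by 5.99 (adjusted p = 5.88e-11). Hsp90ab1, a cytosolic Hsp90, averaged 1688 ± 275 against 83.4 ± 23.6 FPKM in VCD morulae and 2-cell embryos, and 1407 ± 222 against 78.4 ± 17.2 FPKM in PBS morulae and 2-cell embryos. Presequence processing was divided, with 4 of 6 tested genes higher and 2 lower in the morula in VCD and in PBS embryos. Immp1l, an inner membrane peptidase subunit, averaged 38.3 ± 10.5 FPKM in VCD morulae against 1062 ± 147 FPKM in VCD 2-cell embryos, and 46.1 ± 9.81 against 1184 ± 114 FPKM in PBS morulae and 2-cell embryos, differences of -4.79 and -4.68 (adjusted p = 4.84e-09 and 1.01e-09). Pmpca, of the matrix processing peptidase, rose by 3.26 in VCD embryos (adjusted p = 5.10e-07), where it was under 1 FPKM in every 2-cell library. Having passed the minimum through the morula alone, it was bound to be a rise if called, with VCD and with PBS, as were Chchd4 of the disulfide relay and, with PBS, Mtch2 of the insertion factors. Mipep, an intermediate peptidase, fell by 3.96 in PBS embryos (adjusted p = 7.12e-09).

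Among 11 genes of matrix folding and proteases 7 were higher and 1 lower in VCD morulae (41.0% and 43.9% of all genes), and 8 and 1 in PBS morulae (42.7% and 45.0%). Clpp and Clpx, the 2 parts of the ClpXP protease, averaged 49.1 ± 5.98 and 181 ± 44.1 FPKM in VCD morulae against 1.01 ± 0.501 and 9.97 ± 0.919 FPKM in VCD 2-cell embryos, and both rose (adjusted p = 7.14e-09 and 1.07e-08). In PBS embryos they averaged 42.9 ± 9.61 and 146 ± 8.33 FPKM in morulae against 1.02 ± 0.329 and 7.43 ± 0.401 FPKM at the 2-cell stage. Dnajc15, a J protein paralogous to Dnajc19, averaged 353 ± 75.2 FPKM in VCD morulae against 13.3 ± 1.83 FPKM in VCD 2-cell embryos, and 401 ± 69.3 against 16.1 ± 0.831 FPKM in PBS morulae and 2-cell embryos. It thus stood far above Dnajc19 at each of these stages. Of 9 tested genes of inner membrane insertion and further import factors, Dnajc15 among them, 4 were higher and 3 lower in VCD and in PBS morulae. Atad1, which extracts misplaced outer membrane proteins, fell by 3.11 with VCD and fell by 2.95 with PBS (adjusted p = 1.36e-07 and 2.75e-08). In the disulfide relay, 3 of 3 genes were higher in the morula, Gfer by 1.13 and 0.91 and Aifm1 by 1.05 and 1.30 in VCD and PBS embryos. In MICOS, the complex at cristae junctions, 3 of 7 were higher and 2 lower in VCD and in PBS embryos, a share of rises near that of all genes. Minos1 rose by 2.01 and 1.71 and Apoo fell by 0.89 and fell by 1.42 in VCD and PBS embryos (limma adjusted p = 0.00515 and 3.60e-05). No gene of these lists passed the limma test between VCD and PBS at any stage. An unadjusted p under 0.05 was found for 2 in oocytes, 2 in 2-cell embryos and 2 in morulae. Over all genes tested it was found for 245 of 8715, 391 of 11369 and 311 of 9959. limma-voom called 0 of all genes tested at each stage.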

How the data were processed

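Single-tube cDNA libraries (Smart-seq2) were made from mouse MII oocytes, 2-cell embryos and morulae, per the labels' protocols. The authors deposited FPKM values in a table of oocytes and a table of embryos. The submitters' processing notes name Bowtie2 2.2.3 and TopHat2 2.0.12 and the chicken build galGal4, although every gene identifier is a mouse Ensembl identifier, so no coordinate was taken from that build. The counting tool, its annotation and its use of strand are not known here. Low values (under 200 reads) stepped as whole reads for 90.6 to 93.4% of values at a tolerance of 0.01 reads, from which depth was read. FPKM values were tested with limma 3.58.1 (R 4.3.3, variance trend) on log2(FPKM + 1), over genes with at least 1 FPKM in at least 4 libraries of the comparison, with Benjamini-Hochberg adjustment over all of them. These adjusted p-values were called below 0.05. VCD was set against PBS at each stage, morula against 2-cell embryo within VCD and within PBS, and the VCD effects of morula and 2-cell embryo against each other. Paralog ratios were compared by exact permutation (SciPy 1.17.1). Symbols, biotypes, exon overlaps and shared 50-base words came from GENCODE M21, and promoters from RefSeq (GRCm38.p6). Genes were named by a rule: Tomm40, Tomm20, Timm23 and Hspa9 in each comparison, up to 10 largest called stage differences, the 3 smallest p-values between VCD and PBS, the paralog pairs and 2 genes of each further list. The other genes are named to account for each member. The members, lists and tests were chosen with earlier results of these data known. Alternatives were the pseudocount, the minimum on low values, scaling, array weights, the variance trend, a replicate block, leaving out each library and, chosen after seeing the data, limma-voom on the recovered reads.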

Additional observations from a re-analysis of the deposited data

Results flagged for a closer look

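In groups of 4 or 5 libraries, 148 sets of values of single genes were searched for a library that stands apart from the others by Dixon's criterion, and 8 were found, where chance gives about 5% of sets. In morulae, Timm29 was at 14.01 FPKM in VCD replicate 2, with the other VCD libraries at 8.33 to 8.97 FPKM, and Grpel2 was at 9.84 FPKM in VCD replicate 1, with the others at 9.15 to 9.19 FPKM. Replicate 4 of the PBS morulae stood apart for Grpel1, at 134.5 FPKM where the others had 179.8 to 183 FPKM, and for Tomm22, at 75.2 FPKM where the others had 109 to 114 FPKM. In 2-cell embryos, Timm17b was at 6.66 FPKM in VCD replicate 4, with the others at 2.22 to 2.83 FPKM, and Timm44 was at 3.07 FPKM in VCD replicate 3, with the others at 4.42 to 4.60 FPKM. Timm10b was at 0.826 FPKM in PBS replicate 3 of the 2-cell embryos, with the others at 1.23 to 1.31 FPKM. In PBS oocytes Timm29 was at 0.927 FPKM in replicate 4, with the others at 1.198 to 1.23 FPKM.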

How the results depend on the processing

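No import gene was called between VCD and PBS under any alternative tried. Over all values other than single genes, 384 kept direction and side of the threshold and 9 changed sign; over single genes, 1396 did, 5 were weaker and 14 changed sign. The sign changes concern VCD differences near 0: Tomm40 and Timm23 in morulae were 0.0020 and 0.0066 with quantile normalization, and the Grpel1 to Grpel2 ratio in oocytes was 0.0841 with a pseudocount of 0.1. Leaving out single libraries gave -0.0066 to 0.171 for Timm23 in oocytes. In morulae it gave -0.121 to 0.0671 for Tomm40, -0.136 to 0.0596 for Timm23 and -0.158 to 0.0849 for Hspa9. For the difference between stages it gave -0.0291 to 0.166 for Timm23. The Timm17a to Timm17b ratio went over -0.260 to 0.0771 in 2-cell embryos and -0.249 to 0.119 in morulae, and the Grpel1 to Grpel2 ratio over -0.0796 to 0.0665 in oocytes. The cause was not tested. Whether the replicate numbers pair libraries could not be told from so few pairs. Correlations of deviations between libraries with the same number were -0.109 to -0.325 in oocytes. Each of these lay below every oocyte pair with different numbers, of which the lowest was -0.084. Same-number correlations were -0.152 to 0.163 in 2-cell embryos, where number 1 gave the highest of the 16 pairs of a VCD and a PBS library. In morulae they were 0.326, -0.050, 0.048 and 0.378, where numbers 1 and 4 gave the highest of the 16 pairs and numbers 2 and 3 did not exceed 0.1. With a replicate block the count of import genes called was 0 at each stage, and Timm23 in oocytes was -0.0066. VCD oocyte replicate 5 has no PBS library of its number, so the block takes it out of the estimate. The value is therefore the same as without that library. Between stages, leaving out single libraries kept 23 to 25 import genes higher and 3 lower with VCD, and 24 and 3 with PBS. Over all genes the lower calls came to 2729 to 5390 with VCD and 2778 to 5670 with PBS, and the higher calls to 3653 to 4989 and 3803 to 5240, because 3 libraries of a stage cannot reach the minimum of 4. At the depth of these libraries genes near 1 FPKM rest on few reads, and the number of libraries limits the precision.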

Other observations

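In 2-cell embryos, Timm8b took nearly the same value in VCD and PBS libraries of the same replicate number, with 17.8, 24.7, 28.9 and 36.7 FPKM with VCD and 16.8, 23.1, 29.4 and 36.5 FPKM with PBS. This was noticed in the values and not tested. Over all genes, deviations of 2-cell libraries with the same number correlated at -0.152 to 0.163, too few pairs to tell whether the numbers pair libraries.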
